A study of Mus musculus with 20 samples.

Results

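The response of wild-type mouse liver to partial removal was described across genes from 10 of the 20 bulk RNA-seq libraries of the series, chosen by genotype and collection time: 5 wild-type baseline libraries (0 h) and 5 wild-type libraries taken after partial hepatectomy (PHx). All 10 came from male C57BL/6J mice from The Jackson Laboratory (strain spelled C57BL6/J in the sample labels), 2 months old, on chow and with no Cre or floxed allele named for them. In each animal lobes 1, 2 and 3 were resected and gave the baseline RNA, and lobes 4, 5 and 6 gave the later RNA, at 30 h (1 library, replicate 1), 40 h (2 libraries, replicates 2 and 3) or 48 h (2 libraries, replicates 4 and 5). The other 10 libraries were from EedHepKO mice, also 2 months old and sampled on the same schedule. These mice carry Alb:Cre, active in hepatocytes, and a floxed Eed allele whose loxP sites lie around exons 3 and 6. No library of an animal operated on without resection was used here, so the removal of tissue, the surgery and the difference in lobe cannot be told apart. As PHx was sampled at 3 times with at most 2 libraries each, the main comparison set all 5 post-PHx libraries against the 5 baseline libraries.

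After partial hepatectomy the lobes that stay do not regrow the lost ones. Their hepatocytes leave quiescence, copy their DNA and divide until liver mass returns. Cyclin D1 and the E2F factors open the way to S phase, the cyclin B kinase Cdk1 drives mitosis, and the p53 target Cdkn1a (p21) restrains both. Meanwhile the liver must go on with plasma protein secretion, glucose supply, ammonia disposal and bile formation, and the cytokine signal that primes hepatocytes also switches on acute phase genes.

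The wild-type libraries held 22978158 to 28398878 counted reads, and transcripts of the mitochondrial genome took 7.10% to 9.57% of them. Values are given as counts per 1000000 (CPM) on the TMM-scaled total, always in the order 30 h, 40 h replicate 2, 40 h replicate 3, 48 h replicate 4, 48 h replicate 5. The libraries after PHx stood apart from each other more than by their collection times. On the first principal component of the 10 libraries (45.7% of the variance) the baseline libraries lay between -57.4 and -54.6, while the later ones lay at 5.60, 105.8, 48.2, 111.8 and 11.3, so that 1 library of 40 h and 1 of 48 h were next to each other and the other 48 h library was next to the 30 h library. Baseline replicate 1, the library whose title carries no mouse number, held 8185 CPM of mt-Rnr1 and 11859 CPM of mt-Rnr2, the mitochondrial ribosomal RNAs, against 1357 to 1618 and 2179 to 2496 CPM in the other 4. Eed itself was read at 15.3 to 18.4 CPM at baseline and 14.6 to 23.2 CPM after PHx in wild type, and at 5.64 ± 1.44 CPM (SD, n = 5) before and 4.62 ± 1.14 CPM (SD, n = 5) after PHx in EedHepKO. The strand of the counting is not given in the sources used here, so reads of Ccna2, Ccnd1, Chaf1a, Col4a1, Csad, Csf1r, Plin4, Rbl2 and Shmt1 cannot be told apart from those of expressed genes that overlap them on the other strand.

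Of 14661 genes tested, 1677 (11.4%) were called higher and 1273 (8.68%) lower after PHx at an adjusted p under 0.05, and the median log2 fold change was 0.04. The shares of 11.4% and 8.68% are the background for every count of called list members given here. All 5 post-PHx libraries lay above all 5 baseline libraries for 1013 genes (6.91%) and below them for 1594 (10.9%). The labels give the baseline and later sample of a mouse the same number, and with that number as a block the fit called 889 genes higher and 1104 lower. In that fit the 30 h library had no numbered baseline partner and added nothing to the response. Scaling by library size alone, which moved the median of all genes up by 0.36, called 3796 higher and 582 lower, so that 86.7% of calls were then on the higher side against 56.8% with TMM. The fall side also depended on single libraries and times: 755 genes were called lower without 48 h replicate 4, 701 without the 40 h libraries and 635 without the 48 h libraries. Each later library on its own held many genes outside the range of the baseline libraries. The share above the highest baseline library was 27.9%, 34.9%, 29.7%, 36.4% and 28.6% of all genes tested, and the share below the lowest was 30.0%, 35.1%, 30.8%, 34.7% and 30.5%, which is the background for every count by library given here. Leaving aside lists of cell type markers, the lists with the largest shares called higher were those of mitosis, S phase, acute phase and cytoskeleton genes, and those with the largest shares called lower were male-biased liver genes, growth hormone signalling, coagulation and complement, and immediate early genes.

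**Figure D1:**
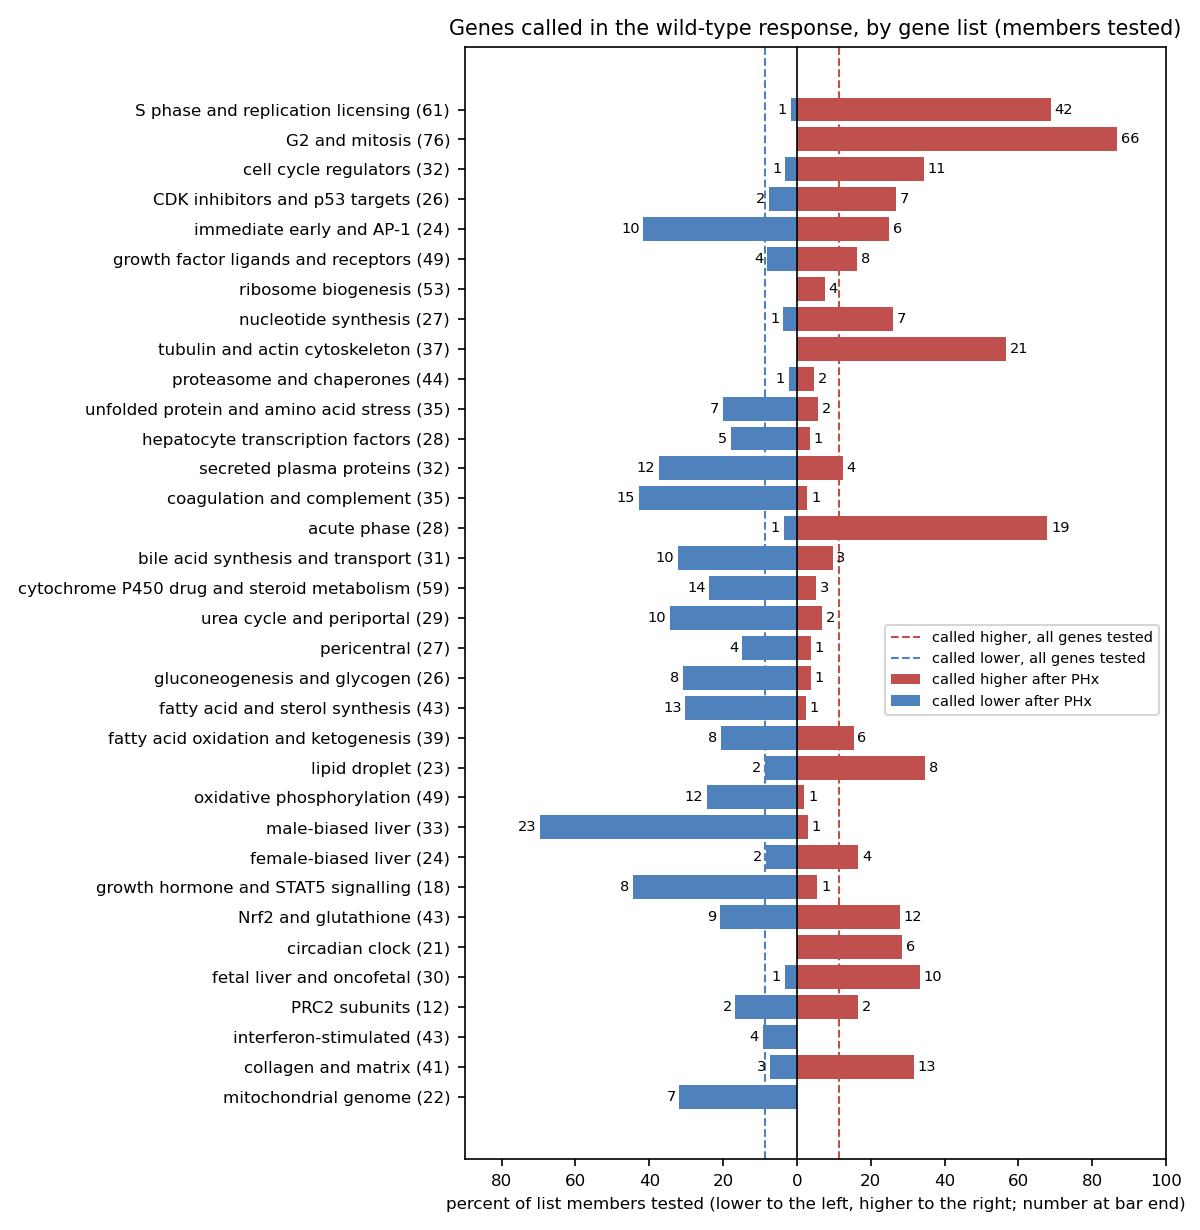
Percent of the tested members of each gene list (y axis, members tested in parentheses) called higher (red, right) or lower (blue, left) after PHx in wild-type liver at an adjusted p under 0.05, with the number at each bar end. Dashed lines mark the shares over all genes tested, 11.4% and 8.68%.

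Genes of DNA replication rose in wild-type liver after PHx. Of 61 genes of S phase and replication licensing, 42 were called higher and 1 lower, with a median log2 fold change of 2.57, and 15 had all 5 later libraries above all baseline libraries and 1 had them all below. By library, 60, 18, 45, 28 and 58 of the 61 lay above the highest baseline library, so the 30 h library and 48 h replicate 5 held nearly all of them high. In 40 h replicate 2 the share above was smaller than the 34.9% of all genes. In that library 14 of the 61 lay below the lowest baseline library, also a smaller share than the 35.1% of all genes. Mcm5, a subunit of the replicative helicase, was read at 170.4, 1.91, 14.4, 5.25 and 57.1 CPM, against 1.01 to 1.39 CPM at baseline. Its log2 fold change was 5.35 (SE 1.19, adjusted p = 0.00445), and the groups did not overlap although 40 h replicate 2 lay just above the baseline libraries. Rrm2, the regulated subunit of ribonucleotide reductase, was at 164.5, 10.8, 10.8, 16.2 and 62.6 CPM against 2.38 to 4.16 CPM (log2 fold change 4.13, SE 0.77, adjusted p = 0.0013). The rise of Rrm2 was thus present in every later library and largest at 30 h. Chaf1b, which loads histones behind the fork, rose by 3.93 on the log2 scale (SE 0.65, adjusted p = 0.000542), and Ung, a uracil glycosylase of S phase, by 2.18 (SE 0.42, adjusted p = 0.00165). Pcna, the sliding clamp, was at 168.5, 27.1, 26.7, 36.1 and 55.5 CPM against 20.5 to 21.97 CPM (log2 fold change 1.56, SE 0.47, adjusted p = 0.0246). The gene called lower was Mcm10, a replication initiation factor, which was read at 64.1 to 159.3 CPM at baseline and at 54.1, 3.61, 5.33, 3.79 and 23.6 CPM after PHx (log2 fold change -2.39, SE 0.77, adjusted p = 0.0332).

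These calls lean on the libraries that are high. Without the 30 h library 25 of the 61 genes were called higher. With the mouse number as a block 6 were, but that fit draws nothing from the 30 h library, which has no numbered baseline partner. With the unnumbered baseline library taken as mouse 1 in the block, 16 were. Among the genes named, Mcm5 (adjusted p = 0.111) and Pcna (adjusted p = 0.233) missed the threshold in the blocked fit with the 4 numbered pairs. The lower call of Mcm10 was lost by library size alone, and without the 40 h or the 48 h libraries. It was also lost without baseline replicate 1, 3 or 5, and without any 1 of the 40 h and 48 h libraries.

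Mitotic genes rose further and in fewer libraries. Of 76 genes of G2 and mitosis 66 were called higher and none lower, with a median log2 fold change of 5.61, yet only 9 of the 76 lay above the baseline range in all 5 libraries. Counted by library, 73, 16, 68, 19 and 75 of the 76 were above the highest baseline library, and 1, 21, 1, 21 and 1 were below the lowest. In 40 h replicate 2 and 48 h replicate 4, then, the share of mitotic genes above baseline was smaller than the share of all genes. Mki67, the proliferation marker Ki-67, was at 82.3, 0.22, 14.2, 0.28 and 327.9 CPM against 0.50 to 1.76 CPM at baseline (log2 fold change 6.58, SE 1.66, adjusted p = 0.00954). Ccnb1, cyclin B1, was at 9.03, 0, 2.66, 0.035 and 139.2 CPM against 0.046 to 0.20 CPM (log2 fold change 8.13, SE 1.98, adjusted p = 0.00784). For both genes 48 h replicate 5 was highest. The other 48 h library was below every baseline library for Mki67. For Ccnb1 its 0.035 CPM and the lowest baseline value of 0.046 CPM are both at the level of single reads, so their order carries little. The fold change of both genes is thus an average over livers that differed by more than the fold itself. Top2a, the decatenating topoisomerase, Cdk1 and Ccna2 (cyclin A2) were likewise highest in 48 h replicate 5, then the 30 h library and 40 h replicate 3, with log2 fold changes of 5.51 (SE 1.56), 5.58 (SE 1.37) and 6.95 (SE 1.69). Ckap2 and Incenp, which act at the spindle and the centromere, and Gtse1, a microtubule protein of G2, were above baseline in all 5 libraries. Ckap2 was at 15.2, 0.30, 1.902, 0.39 and 85.5 CPM against 0 to 0.28 CPM (log2 fold change 7.16, SE 1.54, adjusted p = 0.00348), so its margin in the low libraries was that of a few reads.

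The count of 66 fell to 43 without 48 h replicate 5, to 47 without the 48 h libraries and to 4 with the mouse number as a block. It was 19 with the unnumbered baseline library taken as mouse 1 in the block, which brings the 30 h library into the blocked response. With only the 10 wild-type libraries in the fit, 37 of the 76 passed the filter and 30 of those were called higher. In the blocked fit with the 4 numbered pairs Mki67 had an adjusted p of 0.446, Top2a of 0.623, Cdk1 of 0.351, Ccna2 of 0.197, Ccnb1 of 0.12, Incenp of 0.0955 and Ckap2 of 0.0715.

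**Figure D2:**
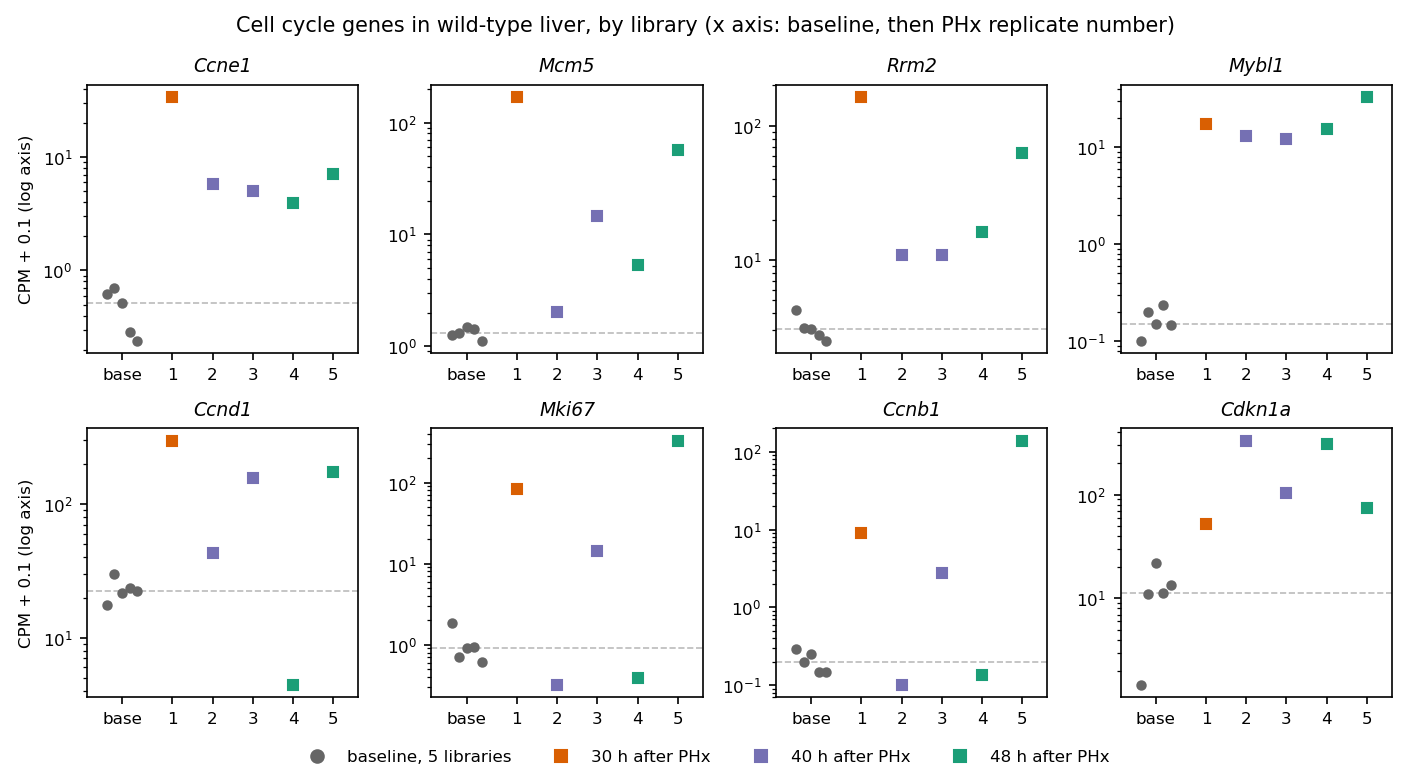
CPM + 0.1 (log y axis) of 8 cell cycle genes in each wild-type library: 5 baseline libraries (grey circles, dashed line at their median) and PHx replicates 1 to 5 (squares, coloured by time). Mki67 is below baseline in replicates 2 and 4, where Cdkn1a is highest. Ccnb1 is near the counting floor in these replicates and at baseline. Mybl1 and Ccne1 lie above baseline in all 5 libraries.

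The promoters of these genes are shown because the genes moved together across libraries and many carry short motifs long tied to cell cycle control. The cell cycle homology region (CHR, TTTGAA), bound by the DREAM and MuvB complexes, and the CCAAT box, bound by NF-Y, mark promoters that peak in G2, and sites such as TTCCCGC and TTGGCGC bind E2F factors. The stretches are the 150 bases directly upstream of the annotated start in RefSeq's mouse table (GRCm38.p6), printed 5′ to 3′ on the gene's strand, and each motif was searched on both strands, with matches in capitals. For G2 and mitosis, the 3 called members with the lowest adjusted p whose stretch held both CHR and CCAAT were Ckap2 (chr8:22185820-22185969, minus strand), Hmgb2 (chr8:57511693-57511842, plus strand) and Kif22 (chr7:127042421-127042570, minus strand), with CHR and CCAAT letters in capitals:
Ckap2: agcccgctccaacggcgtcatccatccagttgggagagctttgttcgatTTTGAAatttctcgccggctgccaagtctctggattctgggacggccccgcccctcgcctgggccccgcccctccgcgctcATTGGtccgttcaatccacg
Hmgb2: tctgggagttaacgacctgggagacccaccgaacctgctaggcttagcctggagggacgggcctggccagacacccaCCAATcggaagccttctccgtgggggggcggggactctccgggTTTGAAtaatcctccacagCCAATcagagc
Kif22: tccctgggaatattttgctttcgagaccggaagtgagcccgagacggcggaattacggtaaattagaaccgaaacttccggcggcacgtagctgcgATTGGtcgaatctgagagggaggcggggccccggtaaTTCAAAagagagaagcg

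Hmgb2, a chromatin protein abundant in dividing cells, was at 33.7, 12.8, 4.41, 6.17 and 36.9 CPM against 2.1 to 4.03 CPM (log2 fold change 2.60, SE 0.60), and Kif22, a chromosome-arm kinesin, at 12.4, 0.30, 2.44, 0.67 and 50.5 CPM against 0 to 0.55 CPM (log2 fold change 5.56, SE 1.36). Their adjusted p in the blocked fit was 0.0517 and 0.141. Of the 64 members of the mitotic list matched in the promoter table, 24 (37.5%) held CHR, 47 (73.4%) held CCAAT and 20 (31.2%) held both. Over all 27025 genes of the table the shares were 10.5%, 27.7% and 2.63%, and over the 10859 tested genes matched in it they were 7.02%, 31.8% and 2.10%. For S phase, the 3 called members with the lowest adjusted p and an E2F-like match (capitals) were Chaf1a (chr17:56040266-56040415, plus strand), Mcm5 (chr8:75109359-75109508, plus strand) and Mcm6 (chr1:128359706-128359855, minus strand):
Chaf1a: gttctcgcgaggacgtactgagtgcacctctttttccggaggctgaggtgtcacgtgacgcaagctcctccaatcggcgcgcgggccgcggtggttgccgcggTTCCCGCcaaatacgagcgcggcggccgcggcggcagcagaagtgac
Mcm5: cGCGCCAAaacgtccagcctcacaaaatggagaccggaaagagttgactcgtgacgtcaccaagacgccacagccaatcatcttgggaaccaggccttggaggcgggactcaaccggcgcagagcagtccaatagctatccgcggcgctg
Mcm6: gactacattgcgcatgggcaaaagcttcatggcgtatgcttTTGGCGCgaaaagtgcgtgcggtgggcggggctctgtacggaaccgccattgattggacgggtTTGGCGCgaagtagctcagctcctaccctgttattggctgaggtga

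Mcm6, another helicase subunit, was at 221.0, 3.65, 17.9, 7.41 and 49.2 CPM against 1.74 to 5.27 CPM, so 40 h replicate 2 lay within the baseline range (log2 fold change 4.22, SE 0.97). Chaf1a, of the same histone loading complex named above, was at 45.4, 3.04, 2.02, 2.34 and 18.96 CPM against 0.41 to 1.105 CPM (log2 fold change 4.04, SE 0.89). In the blocked fit their adjusted p was 0.128 and 0.0811. An E2F-like match was held by 13 of the 48 matched S phase genes (27.1%) by 4.52% of all genes in the table and by 7.74% of the 10859 tested genes matched in it. A match in these letters is a description of the stretch and was not tested as a site.

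Regulators upstream of S phase and mitosis were more mixed: of 32, 11 rose and 1 fell. Ccnd1, cyclin D1, was at 298.4, 42.7, 156.4, 4.33 and 174.6 CPM against 17.5 to 29.9 CPM, so it was above baseline in 4 libraries and below it in 48 h replicate 4 (log2 fold change 2.56, SE 0.75, adjusted p = 0.0206). Ccne1, cyclin E1, was at 33.97, 5.698, 4.95, 3.83 and 7.04 CPM against 0.14 to 0.60 CPM (log2 fold change 4.91, SE 0.67, adjusted p = 9.55e-05). It was above baseline in every later library, unlike Mki67 and Ccnb1. The same held for Mybl1, the A-Myb transcription factor, at 17.2, 13, 12.1, 15.2 and 33.2 CPM against 0 to 0.14 CPM (log2 fold change 7.92, SE 0.86, adjusted p = 9.69e-06). Mybl2 (B-Myb) rose from 0.065 to 0.36 CPM at baseline to 0.46 to 1.49 CPM (log2 fold change 2.22, SE 0.60). Foxm1, which switches on G2 genes, was at 17.7, 0.22, 2.36, 0.64 and 44.7 CPM against 0.050 to 0.28 CPM (log2 fold change 6.39, SE 1.41, adjusted p = 0.00428), highest in 48 h replicate 5 as Mki67 was. E2f1 was at 55.3, 0.26, 7.53, 0.71 and 16.5 CPM against 2.68 to 3.44 CPM and was not called (adjusted p = 0.109). E2f3 rose by 0.99 (SE 0.24, adjusted p = 0.00787). Rbl2, the p130 pocket protein of quiescent cells, fell by 0.78 (SE 0.16, adjusted p = 0.0023) with no overlap. The count of 11 was 6 without the 30 h library, 7 without baseline replicate 4 or 5, 20 by library size alone and 2 with the block, in which Ccnd1 (adjusted p = 0.412), Foxm1 (adjusted p = 0.0759), Mybl2 (adjusted p = 0.0696) and E2f3 (adjusted p = 0.11) missed the threshold.

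Cell cycle inhibitors and p53 targets rose for 7 of 26 genes and fell for 2. Cdkn1a was at 52.2, 329.7, 104.1, 304.7 and 74.7 CPM against 1.36 to 21.97 CPM (log2 fold change 3.87, SE 0.58, adjusted p = 0.000205). It was above baseline everywhere and highest in the libraries with the lowest Mki67. Mdm2, the ligase that removes p53, was at 45.96, 49.9, 38.4, 45.5 and 53.8 CPM against 24.9 to 31.2 CPM, a small and even rise of 0.77 (SE 0.14, adjusted p = 0.00123). Aen and Zmat3, p53 targets, rose by 1.40 (SE 0.21) and 1.27 (SE 0.21). Bbc3, the death effector PUMA, fell by 1.42 (SE 0.36, adjusted p = 0.0105, and 0.0718 with the block).

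Immediate early genes were lower after PHx than in the resected lobes for 10 of 24 members and higher for 6. Nr4a1, Fosb, Jun and Zfp36, all induced within minutes of stress or growth signals, were among those that fell. Jun was at 38.7, 63.1, 50.7, 79.2 and 79.4 CPM against 80.4 to 282.9 CPM at baseline (log2 fold change -1.81, SE 0.39, adjusted p = 0.00357), and the highest later library lay close to the lowest baseline library. Fosb spread from 1.03 to 35.7 CPM among the baseline libraries, so the baseline of this list was itself uneven. Myc was at 4.54, 30.5, 14.4, 50.8 and 4.88 CPM against 2.84 to 6.999 CPM (log2 fold change 2.05, SE 0.64, adjusted p = 0.0301, and 0.0901 with the block). As with Cdkn1a, 40 h replicate 2 and 48 h replicate 4 were highest, but here the 30 h library and 48 h replicate 5 lay within the baseline range. Socs3, the feedback inhibitor of cytokine signalling, was at 11.8, 30.8, 46.9, 75.3 and 20.1 CPM against 2.57 to 10.6 CPM (log2 fold change 2.57, SE 0.58, adjusted p = 0.00462).

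Among 49 growth factor ligands and receptors 8 rose (16.3%) and 4 fell (8.16%), near the shares of all genes, 11.4% and 8.68%. Without 48 h replicate 4, 1 was called lower, and 2 were without baseline replicate 5 or 40 h replicate 2. Tnfrsf12a, the TWEAK receptor Fn14, was at 36.9, 261.1, 92.9, 218.2 and 72.6 CPM against 4.15 to 7.35 CPM (log2 fold change 4.52, SE 0.50, adjusted p = 1.2e-05). Tnfrsf1a, the TNF receptor that primes hepatocytes, rose by 1.34 (SE 0.24, adjusted p = 0.000878), and Btc, the EGF receptor ligand betacellulin, by 3.00 (SE 0.62, adjusted p = 0.00272). Egfr was at 1037, 255.2, 422.3, 440.6 and 953.1 CPM against 1023 to 1876 CPM and fell by 1.11 (SE 0.35, adjusted p = 0.0305), with the 30 h library inside the baseline range. Lifr, the leukaemia inhibitory factor receptor, fell by 2.41 (SE 0.45, adjusted p = 0.00133). Hgf was above baseline in all 5 libraries, at 7.52 to 18.96 CPM against 4.23 to 7.25 CPM, and was not called (adjusted p = 0.0893). It was called in the blocked fit that takes the unnumbered baseline library as mouse 1 (log2 fold change 1.12, adjusted p = 0.0359) and not in the other blocked fit. Its receptor Met was at 56.3 to 86.5 CPM against 76.6 to 103.1 CPM and was not called (adjusted p = 0.266).

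Biosynthesis and cell structure genes differed in how evenly they moved. Of 37 tubulin and actin cytoskeleton genes 21 rose and none fell, 20 had all 5 later libraries above baseline, and 15 to 28 were called over all alternatives. Tubb6, a beta-tubulin, was at 32.4, 49.8, 42.5, 39.1 and 205.3 CPM against 4.42 to 10.9 CPM (log2 fold change 3.48, SE 0.46, adjusted p = 7.28e-05). Tpm4, a tropomyosin, was at 72.8, 75.2, 53.1, 65.4 and 54.4 CPM against 20.04 to 28.5 CPM (log2 fold change 1.43, SE 0.20, adjusted p = 0.000134), with little spread among the later libraries. Of 27 nucleotide synthesis genes 7 rose and 1 fell. Psat1 and Mthfd1l, which feed serine and folate carbons into nucleotides, rose by 4.93 (SE 0.66, adjusted p = 8.21e-05) and 3.52 (SE 0.47, adjusted p = 7.28e-05), and Shmt1, the cytosolic serine hydroxymethyltransferase, fell by 1.46 (SE 0.41, adjusted p = 0.0166). Of 53 ribosome biogenesis genes 4 were called higher, a share below that of all genes, yet 35 and 49 of the 53 lay above the baseline range in 40 h replicate 2 and 48 h replicate 4 and 9 and 13 did in 40 h replicate 3 and 48 h replicate 5. Under library size alone 31 of the 53 were called higher and with the block none was, so no direction is given for this list.

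The acute phase programme was higher in every later library. Of 28 genes 19 rose and 1 fell (median log2 fold change 2.22), 16 had all 5 libraries above baseline, and 16 to 23 were called higher over all alternatives. Saa2, a serum amyloid A, was at 6886, 3396, 3158, 1418 and 1792 CPM against 5.64 to 22.8 CPM (log2 fold change 7.86, SE 0.84, adjusted p = 9.02e-06). Saa1 was at 6472, 3322, 3316, 1408 and 1938 CPM against 19.3 to 63.8 CPM (log2 fold change 6.34, SE 0.76, adjusted p = 2.74e-05). The Saa genes are close copies of each other, so the split of uniquely mapped reads between them is uncertain. Lcn2, the siderophore-binding lipocalin, was at 2001, 3931, 3075, 3172 and 419.8 CPM against 2.47 to 12.7 CPM (log2 fold change 8.96, SE 0.92, adjusted p = 5.87e-06). Hp (haptoglobin) was at 9458, 4706, 10718, 5134 and 4482 CPM against 2379.9 to 3031 CPM (log2 fold change 1.43, SE 0.29, adjusted p = 0.00233). Orm1 and Orm2, orosomucoids, rose by 2.02 (SE 0.33) and 4.25 (SE 0.43). Hpx (hemopexin) rose by 1.06 (SE 0.33, adjusted p = 0.0274), with 2 libraries at baseline level, and its adjusted p with the block was 0.212. The gene that fell was Hamp2, a hepcidin, at 0.22, 2.04, 0.61, 2.52 and 0.069 CPM against 11.01 to 41.8 CPM (log2 fold change -4.33, SE 0.85, adjusted p = 0.00185).

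Plasma protein genes outside the acute phase, apolipoproteins among them, were called on both sides. Of 32 secreted plasma proteins 12 fell and 4 rose, and of 35 coagulation and complement genes 15 fell and 1 rose. Apoa4, an apolipoprotein of triglyceride-rich particles, was at 3758, 17842, 12388, 5894 and 1465 CPM against 60.9 to 116.6 CPM (log2 fold change 6.54, SE 0.60, adjusted p = 1.93e-06), and its gain in CPM was the largest of any called gene. Apoc2, the lipoprotein lipase cofactor, was at 676.6, 2559.7, 1787, 1271 and 553.4 CPM against 139.5 to 187.1 CPM (log2 fold change 3.04, SE 0.36, adjusted p = 2.74e-05). Apoe was at 11193, 14415, 11624, 10304 and 8751 CPM against 22977 to 25577 CPM (log2 fold change -1.08, SE 0.25, adjusted p = 0.00617). Ttr, transthyretin, fell by 1.34 (SE 0.23, adjusted p = 0.000768). Alb was at 46787, 85043, 71315, 48385 and 68455 CPM against 84231 to 102215 CPM, a difference of -0.53 (SE 0.28) that was not called (adjusted p = 0.19). Proc (protein C) and C8b, of complement, fell by 1.23 (SE 0.24) and 1.66 (SE 0.39), both with no overlap. The count of 15 coagulation and complement genes was 4 without the 40 h libraries, 6 without 48 h replicate 4, 7 without the 48 h libraries, without 40 h replicate 2 or by library size alone, and 7 or 8 without any 1 baseline library. That of 12 secreted proteins was 3 without the 48 h libraries, 5 without the 40 h libraries and 6 without 48 h replicate 4, and by library size alone 8 were lower and 10 higher.

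Metabolic genes of the hepatocyte fell in many lists, against a share of 8.68% over all genes. Called lower were 14 of 59 cytochrome P450 and steroid metabolism genes, 10 of 31 bile acid genes, 10 of 29 urea cycle and periportal genes, 4 of 27 pericentral genes, 8 of 26 gluconeogenesis and glycogen genes and 13 of 43 fatty acid and sterol synthesis genes. Called higher in the same lists were 3, 3, 2, 1, 1 and 1. In bulk RNA, fewer cells of a type and less RNA per cell cannot be told apart. The 8 hepatocyte markers summed to 119021 to 139030 CPM at baseline and 70208 to 117640 CPM after PHx, and their part in these results was not tested. The bile acid count was 3 without the 48 h libraries, 4 without the 40 h libraries or 48 h replicate 4, and 5 without 48 h replicate 5. The pericentral count was 2 without any 1 baseline library, either 40 h library or 48 h replicate 4, and by library size alone 3 were lower and 3 higher.

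**Figure D3:**
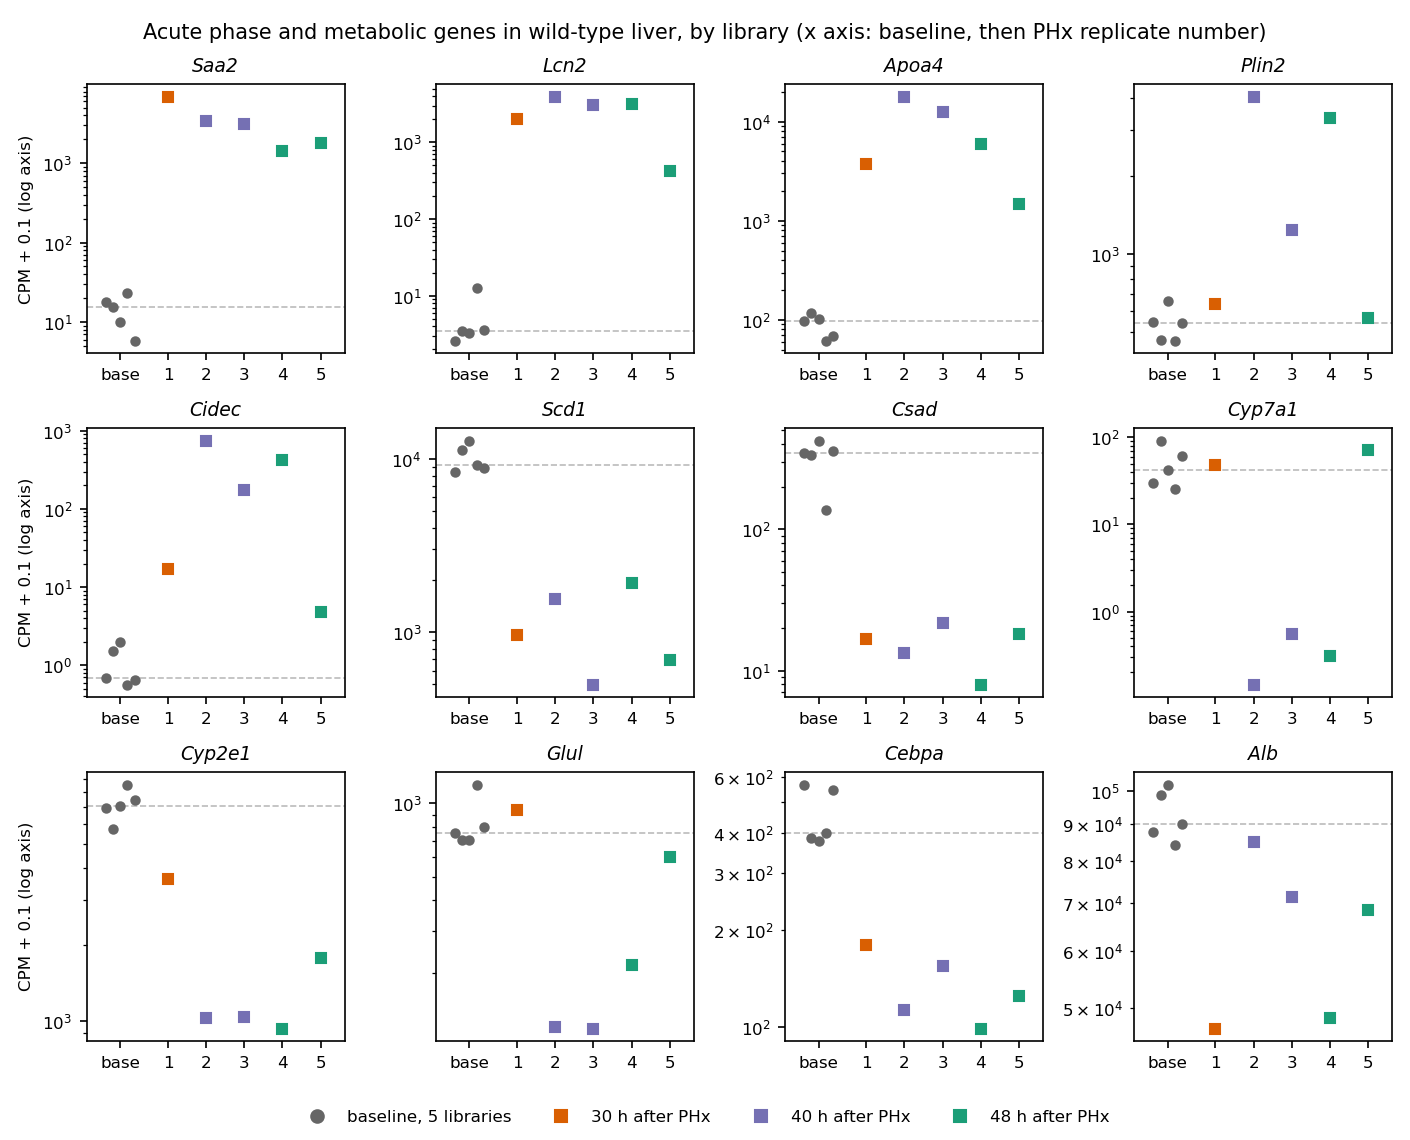
CPM + 0.1 (log y axis) of 12 acute phase and metabolic genes in each wild-type library, drawn as in the plot of cell cycle genes. Saa2, Lcn2, Apoa4 and Cidec lie above baseline and Scd1, Csad, Cyp2e1 and Cebpa below it in all 5 later libraries, whereas Cyp7a1, Glul and Plin2 leave the baseline range in some libraries only.

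Cyp7a1, the rate-limiting enzyme of bile acid synthesis, was at 48.2, 0.043, 0.46, 0.21 and 70.8 CPM against 25.4 to 91.5 CPM. In 3 libraries it was nearly off and in 2 it was within the baseline range, and it was not called (log2 fold change -1.06, SE 1.40, adjusted p = 0.639). Cyp27a1, of the alternative route, fell in every library, at 145.3, 147.4, 117.7, 121.1 and 191.0 CPM against 543.6 to 746.1 CPM (log2 fold change -2.20, SE 0.42, adjusted p = 0.00158). Slco1a1, a sinusoidal uptake transporter, fell by 2.96 (SE 0.85, adjusted p = 0.0189), while Abcb4, the canalicular phospholipid pump, and Slc51b, a basolateral bile acid exporter subunit, rose by 1.55 (SE 0.29, adjusted p = 0.00131) and 5.52 (SE 0.88, adjusted p = 0.000367). At 30 h Slc51b was at 1.00 CPM, just above the highest baseline library at 0.95 CPM. Slc51a, also on the bile acid list, had no read in any wild-type library. Cyp2e1 was at 3618, 1033, 1038, 934.3 and 1772 CPM against 5689.8 to 8545 CPM (log2 fold change -2.08, SE 0.40, adjusted p = 0.0015). Por, the electron donor of the P450 enzymes, rose by 2.26 (SE 0.36, adjusted p = 0.000424). Glul, the pericentral glutamine synthetase, was at 941.0, 120.6, 118.2, 215.5 and 604.2 CPM against 704.1 to 1195 CPM and was not called (adjusted p = 0.109). With the mouse number as a block its log2 fold change of -2.04 was called (adjusted p = 0.00747), and the P450 list then had 23 called lower and the pericentral list 7.

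Urea cycle and amino acid genes fell unevenly. Otc, ornithine transcarbamylase, was at 217.3, 156.5, 150.2, 93.9 and 230.8 CPM against 662.7 to 752.6 CPM (log2 fold change -2.06, SE 0.41, adjusted p = 0.00219). Cps1, the entry enzyme of the cycle, was at 5921, 1328, 4859, 3102 and 3978 CPM against 4186 to 6067 CPM and was not called (adjusted p = 0.569). Hal, histidine ammonia-lyase, fell by 1.76 (SE 0.32, adjusted p = 0.0012), and Slc25a22, a mitochondrial glutamate carrier, rose by 1.92 (SE 0.36, adjusted p = 0.00142). Csad, which makes the taurine precursor hypotaurine, was at 16.5, 13.2, 21.7, 7.799 and 18.1 CPM against 136.7 to 423.4 CPM (log2 fold change -4.37, SE 0.33, adjusted p = 3.74e-07).

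Of the glucose genes, Ppp1r3g, a glycogen-targeting phosphatase subunit, had the lowest fold change among genes that met the naming rule, with at most 0.35 CPM after PHx against 5.87 to 103.5 CPM (log2 fold change -8.38, SE 0.84, adjusted p = 5.55e-06). G6pc, glucose-6-phosphatase, fell by 2.25 (SE 0.34, adjusted p = 0.000206) with no overlap, and Pklr, liver pyruvate kinase, fell by 2.06 (SE 0.27, adjusted p = 6.11e-05). Pck1, the other gatekeeper of gluconeogenesis, was at 1504 to 4904 CPM against 1808 to 5004 CPM (log2 fold change -0.03, SE 0.35, adjusted p = 0.965).

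Lipid genes split between synthesis and storage. Scd1, stearoyl-CoA desaturase, was at 962.9, 1560.4, 495.1, 1918 and 689.4 CPM against 8390.5 to 12756 CPM (log2 fold change -3.16, SE 0.58, adjusted p = 0.0012). Acacb, acetyl-CoA carboxylase 2, fell by 1.91 (SE 0.37, adjusted p = 0.00189) and Insig1, a sterol sensor partner, by 2.28 (SE 0.34, adjusted p = 0.000205). The list's count of 13 lower was 8 without 48 h replicate 4 and 7 by library size alone. Of 23 lipid droplet genes 8 rose and 2 fell. Cidec, a droplet fusion protein, was at 16.9, 746.7, 172.3, 419.4 and 4.74 CPM against 0.46 to 1.904 CPM (log2 fold change 8.11, SE 1.26, adjusted p = 0.000321). Plin2, the droplet coat protein, was at 638.1, 4045, 1236, 3350.3 and 563.2 CPM against 459.9 to 654.3 CPM (log2 fold change 1.88, SE 0.51, adjusted p = 0.0134, and 0.0696 with the block). Plin4, another coat protein, was at 2.18, 304.1, 12.3, 118.4 and 3.06 CPM against 0.91 to 2.899 CPM (log2 fold change 5.45, SE 1.15, adjusted p = 0.00309, and 0.0535 in the blocked fit with the unnumbered library as mouse 1). These genes were highest in 40 h replicate 2, 48 h replicate 4 and 40 h replicate 3, and the 30 h library and 48 h replicate 5 were near baseline for Plin2 and Plin4. Without the 40 h libraries 4 droplet genes were called higher, without 40 h replicate 2 or with the block 5 were, and 3 were with the unnumbered library as mouse 1.

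Fatty acid oxidation genes went both ways, 6 higher (15.4%) and 8 lower (20.5%) of 39, against 11.4% and 8.68% of all genes. Pdk4, which shuts pyruvate out of oxidation, was at 10.9, 613.9, 40.9, 1020.2 and 34.1 CPM against 15.1 to 24.9 CPM (log2 fold change 4.09, SE 1.05, adjusted p = 0.0102, and 0.0934 with the block). Acsl1, a long-chain acyl-CoA synthetase, was at 729.1, 404.1, 283.7, 198.0 and 379.3 CPM against 1462 to 1890.2 CPM (log2 fold change -2.08, SE 0.27, adjusted p = 6.11e-05), and Fabp1, the liver fatty acid binding protein, fell by 1.62 (SE 0.39, adjusted p = 0.00681). The 8 lower calls were 3 in several alternatives, among them leaving out either 48 h library or baseline replicate 2, 3, 4 or 5, and by library size alone 3 were lower and 9 higher. On the TMM scale, nuclear genes of oxidative phosphorylation shifted little in size but evenly. Of 49, 30 had all 5 later libraries below all baseline libraries, against 10.9% of all genes, and 12 were called lower (median log2 fold change -0.38). Library size alone moved the median of all genes up by 0.36, about the size of this shift. The count of 30 was not tested under that scaling. Sdha, a succinate dehydrogenase subunit, was at 460.7, 328.5, 398.4, 222.4 and 446.3 CPM against 623.6 to 801.2 CPM (log2 fold change -0.92, SE 0.22, adjusted p = 0.0075). The count of 12 was 3 by library size alone or without 48 h replicate 4, 4 without 48 h replicate 5, 7 without baseline replicate 2 or 3, 2 without the 48 h libraries and 19 with only the wild-type libraries in the fit. Of 22 genes of the mitochondrial genome 7 were called lower and none higher. Before TMM scaling their share of all counted reads was 7.89% to 9.34% at baseline and 7.10% to 9.57% after PHx, so the ranges overlapped. On the TMM scale mt-Nd2, of complex I, was at 6565 to 9352 CPM against 11756 to 15212 CPM (log2 fold change -0.70, SE 0.21, adjusted p = 0.0205, and 0.105 with the block). By library size alone 2 of the 22 were called lower, as they were without the 48 h libraries or without either of them. Without baseline replicate 1, 2, 3 or 5 the count was 3 or 4.

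Male-biased liver genes fell together. Of 33 members 23 were called lower and 1 higher (median log2 fold change -1.53), and 24 had no overlap on the lower side. The major urinary protein gene Mup3 was at 5308, 6884, 4545, 5777 and 3802 CPM against 14787 to 17492 CPM (log2 fold change -1.58, SE 0.31, adjusted p = 0.00204), and Mup17 was at 6088 to 13842 CPM against 22341 to 39039 CPM. The Mup genes are near-identical copies, as are those of Serpina1 and Sult2a, and uniquely mapped reads may be split among them. Elovl3, a fatty acid elongase, was at 100.9, 18.2, 45.9, 9.93 and 115.5 CPM against 383.0 to 1239.6 CPM (log2 fold change -3.94, SE 0.71, adjusted p = 0.00103). Hsd3b5, a steroid dehydrogenase of male liver, was at 98.8, 0.39, 0.65, 0.50 and 23.4 CPM against 521.0 to 612.2 CPM (log2 fold change -4.50, SE 1.18, adjusted p = 0.0118). The 1 listed member that rose was Sult1e1, estrogen sulfotransferase, at 0.13, 186.8, 59.05, 219.0 and 0.93 CPM. Although listed as male-biased, it was nearly absent at baseline in these male mice. Its baseline libraries held 2 reads in all, which makes it 4579.8-fold higher on pooled counts with a 95% counting interval of 1267.8 to 37816.5. Growth hormone signalling, which sets the male pattern, had 8 of 18 members lower and 1 higher. Ghr, the growth hormone receptor, was at 389.2, 93.2, 117.8, 128.5 and 221.6 CPM against 742.7 to 886.0 CPM (log2 fold change -2.09, SE 0.33, adjusted p = 0.000375), and Stat5b fell by 1.05 (SE 0.21, adjusted p = 0.00191). The male-biased count was 9 without the 40 h libraries and 11 without the 48 h libraries, and the growth hormone count was 3 without either and 5 without baseline replicate 3, baseline replicate 5 or 40 h replicate 3. Of 24 female-biased genes 4 were called higher (16.7%) and 2 lower (8.33%), near the shares of all genes, 11.4% and 8.68%. Trim24, a nuclear receptor cofactor, rose by 1.49 (SE 0.20, adjusted p = 9.86e-05).

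Of 28 hepatocyte transcription factors 5 fell and 1 rose. The 5 were 2 without baseline replicate 2 or without the 48 h libraries and 3 without either 48 h library or without the 40 h libraries, and by library size alone 3 were lower and 3 higher. Cebpa, C/EBP alpha, was at 179.0, 112.9, 154.0, 98.5 and 124.8 CPM against 379.0 to 566.6 CPM (log2 fold change -1.77, SE 0.25, adjusted p = 0.000145). Hnf4a was at 583.1 to 837.7 CPM against 564.5 to 992.1 CPM and was not called (adjusted p = 0.751). Thrb and Nr1h4, the thyroid hormone and bile acid receptors, fell by 1.40 (SE 0.29) and 0.99 (SE 0.31), and Nr1i2, the xenobiotic receptor PXR, rose by 1.16 (SE 0.24, adjusted p = 0.00231). Of 30 fetal liver and oncofetal genes 10 rose and 1 fell. Afp was at 6.24, 4.697, 14.9, 0.35 and 3.503 CPM against 0.26 to 0.83 CPM (log2 fold change 3.62, SE 1.04, adjusted p = 0.0186, and 0.187 with the block), so 48 h replicate 4 stayed in the baseline range. Ly6d, a membrane-anchored surface protein, was at 84.02, 147.1, 180.4, 35.3 and 20.4 CPM against 0 to 0.65 CPM (log2 fold change 7.94, SE 0.93, adjusted p = 2.18e-05).

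**Figure D4:**
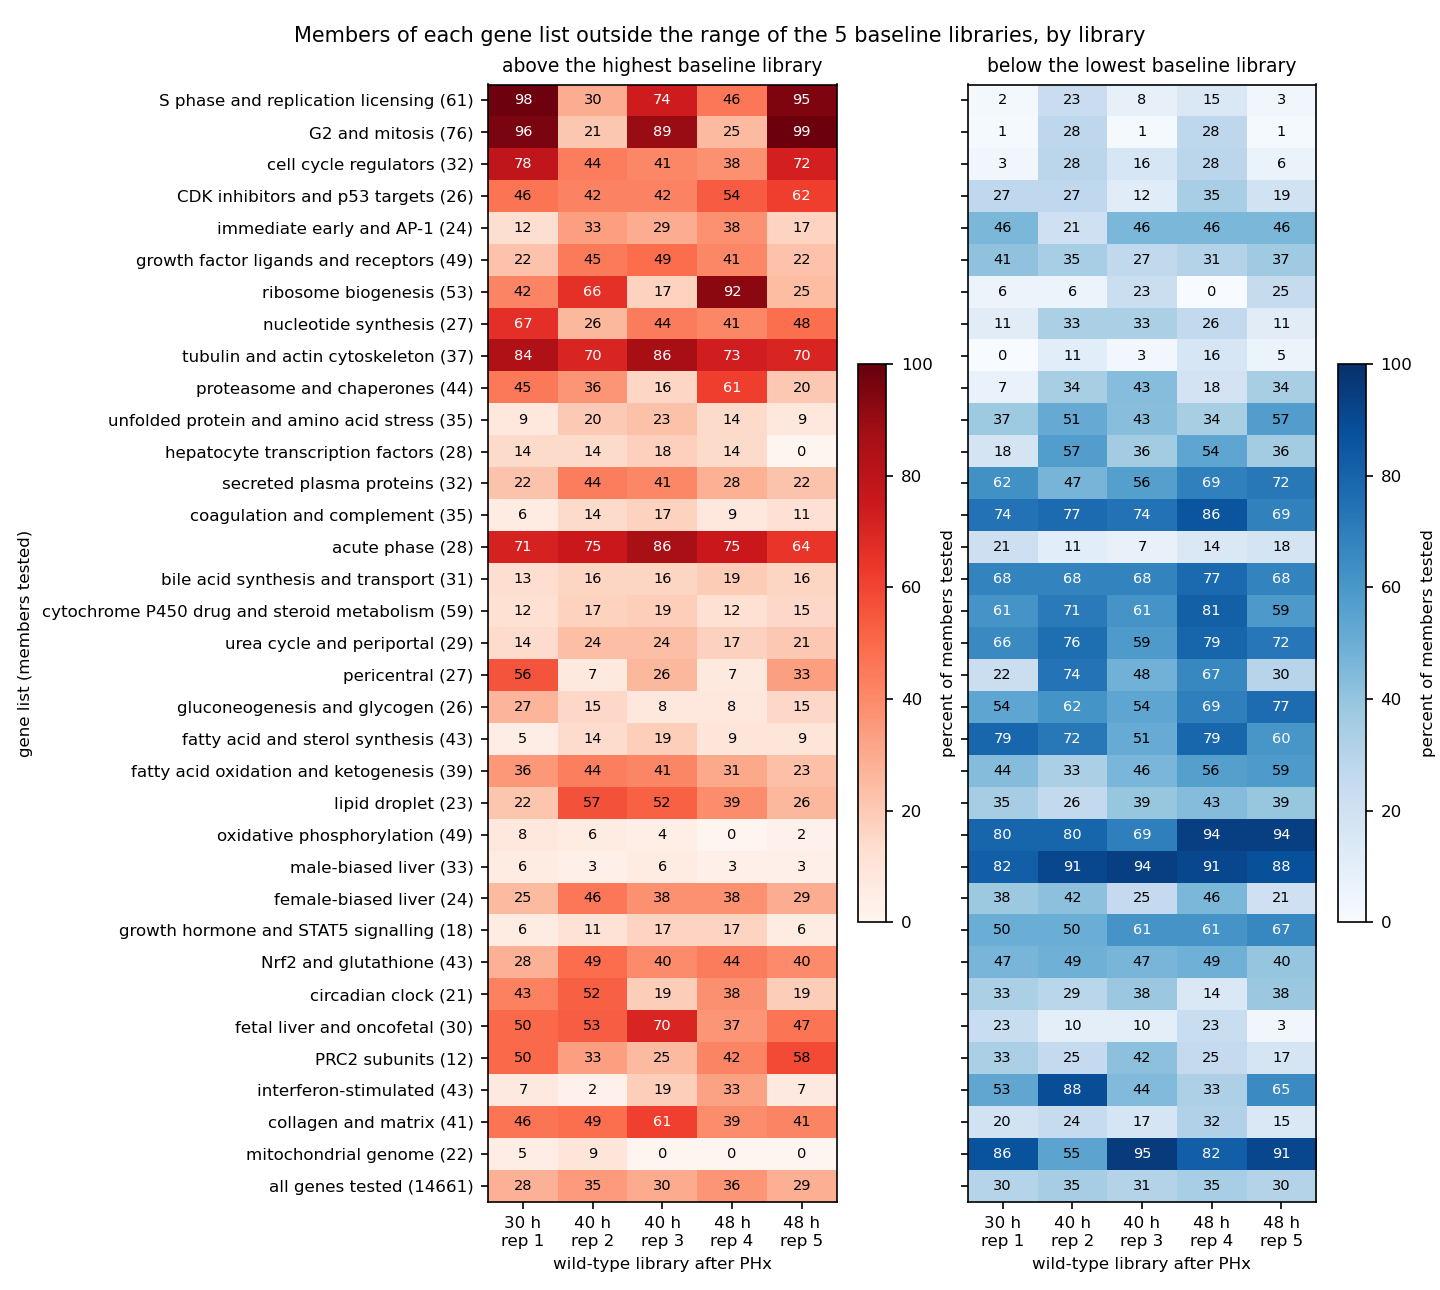
Percent of the tested members of each gene list (rows) that lay above the highest (left, red) or below the lowest (right, blue) of the 5 baseline libraries, for each wild-type library after PHx (columns), with all genes tested in the bottom row. S phase and mitotic genes are above baseline in the 30 h library, 40 h replicate 3 and 48 h replicate 5, ribosome biogenesis genes in 40 h replicate 2 and 48 h replicate 4, and male-biased genes are below baseline in all 5 libraries.

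Among the genes with the largest changes not yet named, Mt2, the metal-binding metallothionein, was at 40.3, 949.9, 709.1, 1570.2 and 97.3 CPM against 0.75 to 10.2 CPM (log2 fold change 7.23, SE 1.20, adjusted p = 0.00055). Igdcc4, a membrane protein of the immunoglobulin superfamily, was at 1.18, 25.4, 4.68, 20.4 and 0.82 CPM against 0 to 0.18 CPM (log2 fold change 7.11, SE 1.05, adjusted p = 0.000198). Ypel4 had no read in any baseline library and 831 after PHx, at least 210.5-fold higher on pooled counts when 3 counts over the baseline group are taken as the floor. It was at 0.17, 18.9, 7.80, 6.24 and 0.41 CPM after PHx, so the 30 h library and 48 h replicate 5 added little to that fold. On the falling side Car3, the carbonic anhydrase of hepatocyte cytosol, was at 294.1, 116.5, 6.81, 125.0 and 148.5 CPM against 5024 to 6158 CPM (log2 fold change -5.29, SE 0.96, adjusted p = 0.00105). Slc13a2, a dicarboxylate transporter, and Car1, another carbonic anhydrase, each fell by 5.85 on the log2 scale, and Inmt, an indole methyltransferase, by 4.32 (SE 0.94). Sult2a8, a bile acid sulfotransferase, fell by 4.15 (SE 0.87, adjusted p = 0.00294). The largest losses in CPM were those of Mup17, Apoe, Mup3, Scd1, Serpina1e (an alpha-1-antitrypsin) and Cyp2e1, and the largest gains those of Apoa4, Hp, Hpx, Saa2, Saa1 and Orm1. These ranks use CPM, which is not per length, and so order differences in reads, not in molecules. In the blocked fit Serpina1e missed the threshold (adjusted p = 0.065).

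Stress, clock and chromatin lists moved in part. Of 43 Nrf2 and glutathione genes 12 rose and 9 fell. Nqo1, a quinone reductase, rose by 1.74 (SE 0.33, adjusted p = 0.00146) and Cat, catalase, fell by 1.84 (SE 0.32, adjusted p = 0.000695). Of 35 unfolded protein and amino acid stress genes 7 fell and 2 rose. Herpud1, of endoplasmic reticulum-associated degradation, was at 207.0, 340.7, 228.6, 161.1 and 160.3 CPM against 483.1 to 832.7 CPM (log2 fold change -1.48, SE 0.38, adjusted p = 0.0103), and 2 of the list were called lower without the 40 h or without the 48 h libraries, 3 without baseline replicate 4 or 40 h replicate 2, and 4 without 48 h replicate 4. By library size alone 3 of the list were lower and 6 higher. Of 44 proteasome and chaperone genes 2 rose and 1 fell, with 21 higher by library size alone. Of 21 circadian clock genes 6 rose and none fell. Per2 was at 17.3, 35.7, 14.8, 24.4 and 4.98 CPM against 5.09 to 8.53 CPM (log2 fold change 1.58, SE 0.36, adjusted p = 0.00502), and Ciart, another clock repressor, rose by 5.28 (SE 1.06, adjusted p = 0.0022). The labels used here give no clock time for either collection. At 30 h and 40 h the time of day cannot be told apart from PHx. By the hours given, 48 h is a whole number of days after baseline, so the time of day should be near that of baseline. At 48 h Per2 was at 24.4 and 4.98 CPM, and Ciart at 8.65 and 0.38 CPM against 0.046 to 0.31 CPM at baseline. The part of the clock in these changes was not tested. Of 12 subunits of PRC2, the complex that holds EED, 2 rose and 2 fell. Ezh2, its methyltransferase, was at 19.01, 3.52, 5.29, 4.22 and 23.7 CPM against 2.43 to 4.81 CPM, high in the 30 h library and 48 h replicate 5 (log2 fold change 1.74, SE 0.59, adjusted p = 0.044, and 0.226 with the block). Eed was not called (log2 fold change 0.13, SE 0.21, adjusted p = 0.716). Rbbp4, the histone-binding subunit, fell by 0.91 (SE 0.21, adjusted p = 0.00516).

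Markers of other cell types moved beside these changes, and their part in them was not tested. Of 11 monocyte and neutrophil markers 7 rose and none fell, and their summed level was 4.40 to 6.85 CPM at baseline and 9.11, 41.3, 94.4, 44.6 and 7.66 CPM after PHx. S100a8, a neutrophil granule protein, was at 1.31, 7.31, 19.2, 8.61 and 0.38 CPM against 0 to 0.32 CPM (log2 fold change 5.70, SE 1.19, adjusted p = 0.00293). Of 15 Kupffer cell and macrophage markers 2 rose (13.3%) and 1 fell (6.67%), near the shares of all genes, 11.4% and 8.68%. Their sums were 275.9 to 484.3 CPM before and 128.3 to 560.5 CPM after. Marco, a scavenger receptor, was at 92.3, 51.6, 112.1, 9.11 and 27.4 CPM against 2.11 to 6.63 CPM (log2 fold change 3.89, SE 0.72, adjusted p = 0.00122), while Csf1r fell by 0.90 (SE 0.31, adjusted p = 0.0481, and 0.0955 with the block). Lymphocyte markers were lower: 4 of 8 T and NK cell markers and 6 of 7 B and plasma cell markers fell, with sums of 4.63 to 7.10 CPM against 0.43 to 1.87 CPM and of 12.7 to 21.8 CPM against 0.87 to 5.45 CPM. With only the wild-type libraries in the fit, 3 of the 6 monocyte and neutrophil, 1 of the 1 T and NK cell and 3 of the 3 B and plasma cell markers that passed the filter were called in those directions. Without the 40 h libraries 4 monocyte and neutrophil markers were called higher, and without the 48 h libraries 2 T and NK cell markers were called lower. Ighm, the IgM heavy chain, was at 2.09, 0.48, 1.03, 0.43 and 1.51 CPM against 5.59 to 14.6 CPM (log2 fold change -3.28, SE 0.45, adjusted p = 9.62e-05). Of 18 endothelial markers 3 fell and none rose (none without the 48 h libraries, and 1 lower with 2 higher by library size alone), their sums being 404.0 to 478.1 CPM before and 204.7 to 350.7 CPM after. Kdr, the VEGF receptor, fell by 1.60 (SE 0.46, adjusted p = 0.0197). By library, 1, 4, 5, 1 and 0 of the 18 endothelial markers lay above the highest baseline library and 9, 9, 8, 14 and 16 below the lowest. Lyve1, one of those above in part, was at 3.88, 48.1, 17.7, 26.3 and 2.44 CPM against 5.09 to 8.52 CPM. Of 13 cholangiocyte markers none was called, and the list's sum was 267.5 CPM in 40 h replicate 3 against 42.6 to 90.2 CPM at baseline. Of that sum 204.1 CPM came from Spp1 alone, which was at 18.99 to 50.9 CPM at baseline. Stellate cell and fibroblast markers gave 2 higher (11.1%) and 1 lower (5.56%) of 18, also near the shares of all genes, and none higher without 40 h replicate 2. Of 41 collagen and matrix genes 13 rose and 3 fell, with Col4a1, a basement membrane collagen, at 82.4, 154.4, 88.8, 111.2 and 51.5 CPM against 29.4 to 34 CPM (log2 fold change 1.63, SE 0.27, adjusted p = 0.000499), and 8 were called higher without the 40 h libraries. Of 43 interferon-stimulated genes 4 fell (8 without 48 h replicate 4) and none rose. The share of 9.30% lower was near the 8.68% of all genes. Bst2, tetherin, fell by 1.30 (SE 0.29, adjusted p = 0.00435). Among the pancreas and gut markers, 8 of 14 had no read in any wild-type library, and Cela1, an elastase gene, fell from 25.9 to 42.7 CPM to 3.50 to 8.55 CPM (log2 fold change -2.37, SE 0.24, adjusted p = 5.89e-06).

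Whether 48 h differed from 40 h could be asked with only 2 libraries a time. In the fit with genotype and time, 0 genes were called higher and 4 lower at 48 h (0.0273% of genes tested), and 1496 had an unadjusted p under 0.05. DESeq2 called 70 higher and 89 lower. The 4 genes were Tmem141, a small membrane protein, at 66.1 and 42.0 CPM at 40 h and 11.4 and 9.31 CPM at 48 h (log2 fold change -2.38, SE 0.27, adjusted p = 0.00236), Fam131c (-2.36, SE 0.34, adjusted p = 0.0213), Bmyc (-3.41, SE 0.53, adjusted p = 0.0385) and Gm5096 (-2.07, SE 0.34, adjusted p = 0.0491). At 48 h Tmem141 was within its baseline range of 8.58 to 13.1 CPM. No gene was called with the mouse number as a block or with only the wild-type libraries in the fit. Without 48 h replicate 4, 363 genes were called higher and 158 lower, with the remaining 48 h library taken to vary like the other groups. The mitotic list had a median log2 difference of 3.95 between 48 h and 40 h, with 1 library of each time high and the other low, and no member was called.

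The wild-type response was set against that of the EedHepKO libraries only to ask where it differed. The difference itself was called for 57 genes (0.389%), and for 7 with the mouse number as a block, and leaving out the EedHepKO library of replicate 10 after PHx raised the count to 708. Both responses were fitted on 5 libraries before and 5 after. Mybl1 rose by 7.92 in wild type and by 1.65 in EedHepKO (difference 6.26, SE 1.02, adjusted p = 0.00952). Its mean was 0.067 CPM at baseline and 18.2 CPM after PHx in wild type, against 4.40 and 13.9 CPM in EedHepKO, so the gap lay mostly at baseline. Saa2 rose by 7.86 in wild type against a log2 fold change of 2.74 in EedHepKO (difference 5.13, SE 0.94, adjusted p = 0.0176), and Saa1, Orm2, Ly6d and Slpi (an elastase inhibitor) differed in the same direction. Mean Saa2 went from 14.3 to 3330 CPM in wild type and from 102.6 to 684.6 CPM in EedHepKO. Mean Ly6d went from 0.37 to 93.45 CPM in wild type and from 30.3 to 224.1 CPM in EedHepKO, where it was thus higher both before and after PHx. Csad fell by 4.37 in wild type against a fold change of -1.67 in EedHepKO (difference -2.70, SE 0.41, adjusted p = 0.00952). Slc13a2 was called lower in wild type and not in EedHepKO, with log2 fold changes of -5.85 and 0.35 (difference -6.20, adjusted p = 0.0176), and Depp1, a FOXO target, fell by 3.98 against -0.37 in EedHepKO. Mean Slc13a2 went from 6.67 to 0.11 CPM in wild type and from 0.34 to 0.42 CPM in EedHepKO, so in EedHepKO it was already low before PHx. Zbtb7c, Apoc2, Abcb4, Abhd5 (a lipase activator) and Cela1 were also called. With the block, of these 14 genes only Csad kept its call, and Mybl1 had an adjusted p of 0.0718. For Mki67 (adjusted p = 0.234), Ccnb1 (adjusted p = 0.198) and Cdkn1a (adjusted p = 0.337) the difference between genotypes was not called.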

How the data were processed

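The files hold raw read counts per gene, as deposited by the authors, for 20 bulk RNA-seq libraries of mouse liver. Per the labels' protocols, poly(A) RNA was made into TruSeq libraries and read in pairs on a NovaSeq 6000, and uniquely mapped reads on mm10 were used. The design text names FastQC 0.11.5 and fastp 0.20.0, and the submitters' processing notes list Trimmomatic 0.36 as the trimmer. The aligner, counter, strand setting and annotation release are not given in the sources used here. Of 46603 gene identifiers, 46091 matched GENCODE M21.

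Groups came from the labels. Genes were filtered with filterByExpr and scaled by TMM, and 14661 were tested with edgeR 4.0.16 quasi-likelihood fits (limma 3.58.1, R 4.3.3) over the 4 groups of genotype and PHx, or over genotype and time for 48 h against 40 h. Adjusted p-values are Benjamini-Hochberg over all genes tested, two-sided, and a gene is called under 0.05. SE is the size of the log2 fold change divided by the square root of F. CPM uses the TMM-scaled total. The scripts were tested on simulated data. Counting intervals and floors (95%, 3 counts) cover counting error only. Apart from the baseline library without a mouse number, the libraries of a group carry different mouse numbers.

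The labels say that a mouse gave both its baseline and its later sample, and same-numbered samples deviated together only slightly (residual r 0.02 to 0.08, other pairs -0.07 to 0.07). In the blocked fit the baseline library without a mouse number was a level of its own. The 30 h library then had no baseline partner and added nothing to the blocked response. An alternative block took the unnumbered library as mouse 1. Alternatives were library size alone, other filters, only the 10 wild-type libraries, DESeq2 1.42.0, and leaving out each library. Leaving out the 40 h or the 48 h libraries was chosen after seeing the data. The genes and lists were chosen with earlier results of these data known. Named genes were anchor genes, the 10 highest and 10 lowest fold changes with at least 5 CPM and no overlap, the 6 largest gains and losses of CPM, up to 4 called members per list and direction, and the leading genes of the other 2 comparisons. The text prints part of them, and 1 item is not reported here. Hmgb2, Kif22, Chaf1a and Mcm6 (for their promoters) and mt-Rnr1 and mt-Rnr2 were chosen after their values were seen.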

Additional observations from a re-analysis of the deposited data

Results flagged for a closer look

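In 284 groups of 5 libraries of the named genes, 22 held a library far from the other 4 by Dixon's test. That test flags about 1 in 20 by chance for independent, normally distributed values. Many named genes move together and some were chosen after their values were seen, so the 22 cannot be set against that rate. After PHx, 48 h replicate 5 stood apart for Mki67 (327.9 CPM), Ccnb1 (139.2 CPM), Ccna2 (134.1 CPM), Ckap2 (85.5 CPM), Kif22 (50.5 CPM), Mybl1 (33.2 CPM) and Tubb6 (205.3 CPM). The 30 h library stood apart for the S phase genes Mcm6 (221.0 CPM), Pcna (168.5 CPM), Ung (44.1 CPM) and Chaf1b (28.3 CPM), for Ccne1 (33.97 CPM) and for Hsd3b5 (98.8 CPM). In 40 h replicate 2 Bmyc was at 48.7 CPM.

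At baseline, replicate 1 stood apart for mt-Rnr1 (8185 CPM), mt-Rnr2 (11859 CPM) and Mki67 (1.76 CPM). Replicate 2 did for Slc51b (0.95 CPM), replicate 3 for Acacb (131.3 CPM) and Mcm10 (159.3 CPM), and replicate 4 for Glul (1195 CPM) and Lcn2 (12.7 CPM).

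The response differed between wild type and EedHepKO, by the test of the difference itself, for 14 named genes. The log2 response was higher in wild type by 6.26 for Mybl1, 5.13 for Saa2, 5.06 for Ly6d, 4.22 for Saa1, 3.79 for Slpi, 2.51 for Orm2, 2.23 for Apoc2 and 2.16 for Abcb4. The difference was -6.20 for Slc13a2, -3.61 for Depp1, -3.36 for Zbtb7c, -2.70 for Csad, -1.87 for Abhd5 and -1.70 for Cela1.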

How the results depend on the processing

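Of 126 named genes called in the wild-type response, 82 kept their direction and call under every alternative run and none reversed. The cause of the changes below was not tested. Genes called higher numbered 3796 by library size alone, 889 with the replicate block, 1094 with the unnumbered baseline library taken as mouse 1 in the block, and 1236 to 1848 when each library was left out. Genes called lower numbered 582 by library size alone, 701 without the 40 h libraries, 635 without the 48 h libraries, 788 with a log2 change of at least 1, and 755 to 1363 when each library was left out (755 without 48 h replicate 4). For 48 h against 40 h, 0 higher and 4 lower became 18 and 16 with no filter and 70 and 89 with DESeq2. The lower count was 1 by library size alone and 0 with only the wild-type libraries or with either replicate block. Leaving out each library gave 0 to 363 higher and 3 to 158 lower. The 57 differences between genotypes became 7 and 3 with the replicate blocks, 365 with DESeq2 and 22 to 708 when each library was left out. Uncalled genes changed sign: E2f1 (-0.23, replicate block), Hnf4a (0.24 by library size, -0.21 to 0.00 when each library was left out), Met (0.09 by library size) and Pck1 (0.32 by library size, 0.03 with no filter, 0.01 with only wild-type libraries, 0.35 without the 48 h libraries, and -0.25 to 0.20 when each library was left out). The report gives blocked values beside calls of the wild-type response that the block changed. DESeq2 gave no adjusted p for 4 of the gene values.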
